A study of Mus musculus with 8 samples.

Results

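The genes followed here, 10 in number, serve the uptake of apoptotic cells and were measured in the immune cells of E0771 mammary tumors. They were chosen by name and comprise the receptors *Mertk*, *Axl*, *Stab1*, *Timd4*, *Itgav* and *Cd300lf*, the brake *Sirpa*, and the bridging proteins *Gas6*, *Pros1* and *Mfge8*. All 10 of 10 symbols were found, among 23633 genes used. E0771 is a mouse triple-negative breast cancer line, and the study grew it in C57BL/6 mice. E0771-Res1 and E0771-Res2 are cell lines that were established from E0771 tumors that had relapsed after paclitaxel and anti-PD-1 antibody, so each resistant group stands for 1 line. CD45+ cells were sorted on day 18 after implantation from 2 mice with parental E0771, 3 with E0771-Res1 and 3 with E0771-Res2 tumors, and were sequenced in droplet-based libraries that read the poly-A end of transcripts. Another parental mouse described in the study was not analysed here. The labels give neither the age of the mice nor a treatment of the implanted tumors.

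The removal of dying cells by phagocytes, or efferocytosis, begins with phosphatidylserine, a lipid that dying cells expose on their surface. Some receptors bind this lipid directly, as stabilin-1, TIM-4 (encoded by *Timd4*) and CD300lf do. The TAM receptor kinases bind it through bridging proteins, MerTK through GAS6 and protein S (*Pros1*) and Axl through GAS6. The αv integrins (*Itgav*) bind it through MFG-E8. SIRPα works in the opposite sense, since it restrains engulfment when it meets CD47 on the target cell, and CD300lf also carries inhibitory motifs.

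Of 11430 deposited cells, 10605 were kept, with total counts of 5036667 to 18894504 unique molecular identifiers (UMIs) per mouse. Kept cells were gated on a few genes, none of them among the 10. The gates gave 2315 macrophages (104 to 575 per mouse, at least 10 *C1qa* UMIs), 3600 monocytes (219 to 636, *Ly6c2*), 520 dendritic cells (23 to 120, *Flt3*, *Zbtb46*, *Ccr7*, *Xcr1*, *Clec9a* or *Cd209a*) and 673 T, NK and B cells (39 to 150). A further 730 cells with lymphoid and myeloid UMIs together, 5 tumor or stromal cells and 2762 ungated cells were in no class, and the ungated cells were shallow, with medians of 2984 to 4929 UMIs per mouse. Markers of macrophages and of dendritic cells outside the gates were highest in those classes. In macrophages 5 macrophage genes summed to 14524 to 20679 CPM (UMIs scaled to a fixed total per mouse and class). They summed to 2604 to 3547 in monocytes and 685 to 1305 in dendritic cells. The sum of 5 dendritic cell genes was 719 to 1357 in dendritic cells against at most 121 in the other myeloid classes. Of the genes of other cells, macrophages held 888 to 1879 CPM over 5 monocyte genes (4990 to 8841 in monocytes), 55.5 to 139 over 3 NK cell genes, 61 to 96.4 over 5 neutrophil genes, 56.8 to 121 over the dendritic cell genes, 19.9 to 37.3 over 3 T cell genes and 8.20 to 20.7 over 8 tumor or stromal genes. Of the neutrophil genes in macrophages, *Csf3r* gave 1344 UMIs and *S100a8*, the next, 47. Genes of red blood cells summed to under 11 CPM in 7 mice and to 131 in parental replicate 1. Dendritic cells held 2651 to 3759 CPM over the monocyte genes, more than over their own genes. They also held 349 to 451 over the NK cell genes and 0 to 144 over the tumor or stromal genes. The monocyte sum was mostly *Plac8*, with 10102 UMIs against 954 of *Ccr2*, 483 of *Chil3*, 206 of *Fn1* and 121 of *Vcan*. The NK cell sum was mostly *Klrk1*, with 1371 UMIs against 138 of *Nkg7* and 60 of *Klre1*. These sums therefore do not settle how pure the class was. Macrophages of E0771-Res2 tumors were shallower, with medians of 6998.5 to 8869 UMIs per cell against 10088.5 to 11481 in the other tumors. Shares of cells with a UMI were therefore taken after each cell had been thinned to 4500 UMIs, which 2144 of 2315 macrophages reached. No cell barcode was shared between mice. *C1qa* RNA was also found in the T, NK and B cells, in which 37.1% ± 6.24 (SD, n = 8) of thinned cells had a UMI, so low shares elsewhere are read beside the share in these cells.

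The genes fell into 3 patterns across the myeloid classes. *Gas6*, *Stab1* and *Mertk* were several-fold higher in macrophages than in monocytes and lowest in dendritic cells. *Timd4* was mostly a dendritic cell transcript. *Mfge8* had its highest level in dendritic cells, but they held only 29.1% of its UMIs. *Sirpa*, *Itgav*, *Axl* and *Cd300lf* had UMIs in all classes and were lower in dendritic cells than in macrophages or monocytes, and *Pros1* passed the threshold between none of the 3. The *Cd300lf* level in dendritic cells was close to that in T, NK and B cells. In edgeR's quasi-likelihood test with the mouse as a block, 6 of the 10 were higher in macrophages than in monocytes and 1 was lower, beside 25.8% of all 8652 genes tested that were higher and 27.5% that were lower at an adjusted p of 0.05 (53.2% in all). Dendritic cells had 2 higher and 7 lower than monocytes (all genes 21.4% and 25%, 46.4% in all), and macrophages had 7 higher and 2 lower than dendritic cells (all genes 24.8% and 24.6%, 49.4% in all). *Gas6*, *Mfge8* and *Timd4* passed the filter on low counts only through the class in which they were high, so their difference from that class to the others is given below as a value with no test. Among the other 7, 5 were higher and 1 lower in macrophages than in monocytes, 6 were lower and 0 higher in dendritic cells than in monocytes, and 6 were higher and 0 lower in macrophages than in dendritic cells. The median log2 difference of all 10 from monocytes was 0.30 in macrophages and -1.09 in dendritic cells, where the median of all genes was 0.01 and -0.03. The normalization by TMM lowered the log2 fold of macrophages over monocytes by 0.18 against plain CPM, and that of dendritic cells over monocytes by 0.14.

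**Figure D1:**
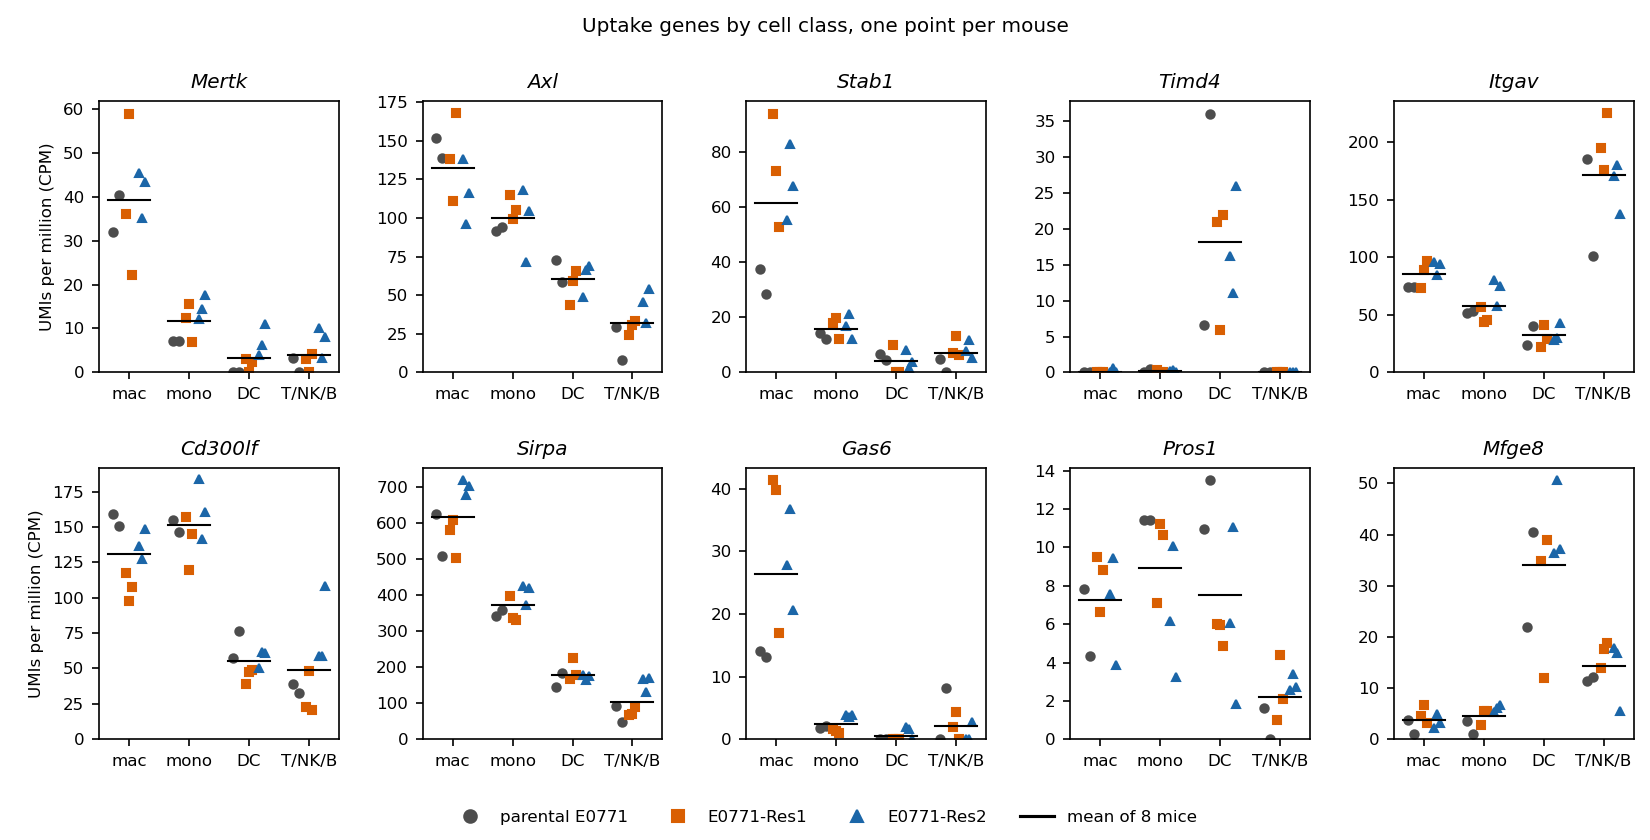
Level in CPM (vertical axis, linear, a scale of its own for each gene) in macrophages (mac), monocytes (mono), dendritic cells (DC) and T, NK and B cells, with 1 point per mouse, colored by tumor line, and the mean of 8 mice as a bar. *Gas6*, *Stab1* and *Mertk* were highest in macrophages, *Timd4* and *Mfge8* in dendritic cells and *Itgav* in T, NK and B cells.

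*Gas6*, the bridge that activates the TAM receptors, was concentrated in macrophages. Its level in macrophages ran from 13.1 CPM to 41.3, with a median of 24.2, and in monocytes from 0.928 to 3.87. Every mouse had more in macrophages than any mouse had in monocytes. The log2 difference was 3.18 ± 0.20 (SE). Dendritic cells held 2 *Gas6* UMIs in all and 0 in 6 of 8 mice, where 3 UMIs would have been 2.99 to 17.8 CPM, and lay below monocytes by 2.33 ± 0.79 (adjusted p = 0.017, lost without the mouse block, at 0.069, and with the *C1qa* limit at 20 UMIs, at 0.16). T, NK and B cells held 6 *Gas6* UMIs, at a mean of 2.15 CPM, close to the 2.40 of monocytes. At 4500 UMIs per cell, 5.91% ± 2.76 (SD, n = 8) of macrophages had a *Gas6* UMI, against 0.701% ± 0.453 of monocytes and 1.18% ± 1.71 of T, NK and B cells, so the monocyte share was no higher than the background.

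*Stab1*, the scavenger receptor stabilin-1, followed with 28.4 to 94.1 CPM in macrophages (median 61.7), 12 to 21.3 in monocytes and 0 to 9.98 in dendritic cells. The ranges of macrophages and monocytes did not overlap. The log2 difference between macrophages and monocytes was 1.80 ± 0.13 (adjusted p = 2.8e-12), and dendritic cells lay 1.72 ± 0.32 below monocytes (adjusted p = 6.5e-05). *Stab1* UMIs were found in 14.5% ± 4.09 of thinned macrophages, 5.40% ± 1.16 of monocytes and 3.14% ± 2.06 of T, NK and B cells.

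*Mertk*, the TAM receptor of resting macrophages, had 22.1 to 58.8 CPM in macrophages (median 38.2), 6.96 to 17.7 in monocytes and 0 to 11.1 in dendritic cells. Again no monocyte value reached the lowest macrophage value. *Mertk* was higher in macrophages than in monocytes by 1.55 ± 0.14 on the log2 scale (adjusted p = 2.6e-10) and higher than in dendritic cells by 3.1 ± 0.29 (adjusted p = 3.5e-10). The shares of thinned cells with a *Mertk* UMI were 11.4% ± 4.02 in macrophages, 3.57% ± 1.18 in monocytes and 0.699% ± 0.801 in T, NK and B cells.

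These 3 genes also had the largest shares of their UMIs in macrophages. Macrophages held 70.5% of the 804 *Gas6* UMIs of kept cells, 57.5% of the 2322 *Stab1* UMIs and 51.2% of the 1467 *Mertk* UMIs, whereas monocytes held 7.09%, 15.2% and 17.9%. No *Gas6*, *Stab1* or *Mertk* UMI was found in the 5 tumor or stromal cells, and the sort for CD45+ cells leaves the tumor cells themselves unmeasured.

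**Figure D2:**
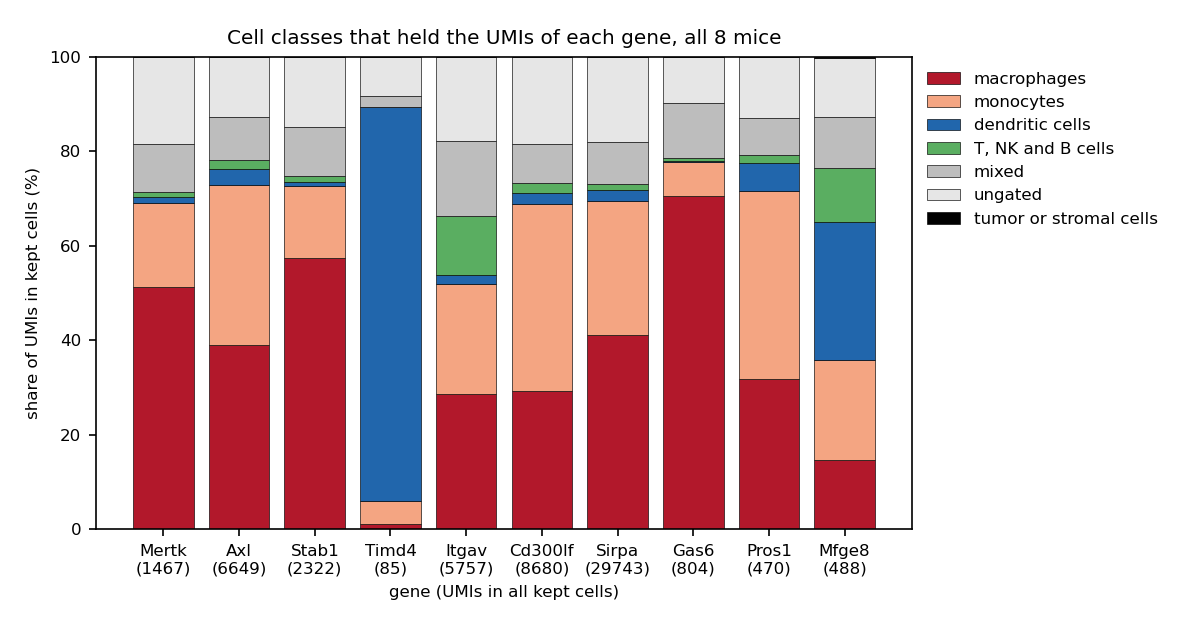
Share of the UMIs of each gene (vertical axis, %) held by each gated class, all mice together, with the number of UMIs in kept cells under each gene name. Macrophages held 70.5% of *Gas6* UMIs and dendritic cells 83.5% of *Timd4* UMIs, while the UMIs of *Itgav* and *Mfge8* were spread over more classes.

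In the reference annotation (GENCODE M21, GRCm38) the 3 macrophage genes are protein-coding and lie apart: *Gas6* on chromosome 8, from 13465374 to 13494490 on the minus strand, *Stab1* on chromosome 14, from 31139013 to 31168641 on the minus strand, and *Mertk* on chromosome 2, from 128698956 to 128802894 on the plus strand. Because they moved together across classes, the 250 bases before their start sites (RefSeq, GRCm38.p6) are shown, 5′ to 3′ on the strand of the gene, with GGGCGG and its reverse complement CCGCCC, the letters of a GC box, in capitals. The first is chr8:13494536-13494785 (minus strand), the second chr14:31168642-31168891 (minus strand) and the third chr2:128698665-128698914 (plus strand).
Gas6: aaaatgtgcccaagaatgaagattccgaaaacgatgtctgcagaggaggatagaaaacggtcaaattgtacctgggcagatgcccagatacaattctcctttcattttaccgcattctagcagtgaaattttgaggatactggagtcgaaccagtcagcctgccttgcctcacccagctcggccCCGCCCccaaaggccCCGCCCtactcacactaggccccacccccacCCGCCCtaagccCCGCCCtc
Stab1: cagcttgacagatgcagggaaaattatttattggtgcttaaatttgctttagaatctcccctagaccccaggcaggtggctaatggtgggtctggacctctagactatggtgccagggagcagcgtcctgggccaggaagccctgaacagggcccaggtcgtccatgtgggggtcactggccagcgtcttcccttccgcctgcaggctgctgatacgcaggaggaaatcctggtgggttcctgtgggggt
Mertk: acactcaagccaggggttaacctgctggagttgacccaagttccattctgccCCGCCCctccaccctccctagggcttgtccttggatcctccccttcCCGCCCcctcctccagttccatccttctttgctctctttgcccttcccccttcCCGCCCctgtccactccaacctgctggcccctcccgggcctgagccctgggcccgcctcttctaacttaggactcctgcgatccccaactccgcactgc
The window of *Gas6* held 4 copies of the GC box, that of *Mertk* 3 and that of *Stab1* 0, and 32.7% of all 32851 windows of this length held at least 1. Of the 9 genes with an entry, 5 held it (*Mertk*, *Axl*, *Mfge8*, *Gas6*, *Pros1*). GAGGAAG, the core of a PU.1 site, was found in *Itgav*, *Axl* and *Cd300lf* (10.6% of all windows, either strand), TGCTGAC, a MAF half-site, in *Timd4* (3.81%), CCAAT in *Timd4* and *Stab1* (33.8%) and TATAAA in *Cd300lf* (12.4%). None of the 5 motifs was shared by *Gas6*, *Stab1* and *Mertk*.

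*Timd4*, the gene of the phosphatidylserine receptor TIM-4 known from resident macrophages, was near absent from macrophages and found in dendritic cells. All macrophages together held 1 *Timd4* UMI, monocytes 4 and T, NK and B cells 0 (3 UMIs per mouse would be 2.99 to 13.2 CPM), while dendritic cells held 71 of the 85 UMIs, at 5.94 to 36.0 CPM. Every mouse had *Timd4* in dendritic cells, but the count per mouse was only 1 to 21. Dendritic cells exceeded monocytes by 6.14 ± 0.41 on the log2 scale and macrophages by 7.34 ± 0.47, values that rest on 5 UMIs in the other 2 classes. Macrophages and monocytes differed by -1.20 ± 0.83 (adjusted p = 0.23).

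*Mfge8*, the gene of the bridge between phosphatidylserine and αv integrins, was likewise highest in dendritic cells, at 11.9 to 50.6 CPM (median 36.8), against 1.09 to 6.64 in macrophages and 1.09 to 6.77 in monocytes. The ranges did not overlap. Dendritic cells were higher than monocytes by 2.85 ± 0.24 on the log2 scale and than macrophages by 3.37 ± 0.25, and macrophages differed from monocytes by -0.52 ± 0.27 (adjusted p = 0.10, and called without E0771-Res1 replicate 1, at 0.039, and without the 5% of cells with most UMIs, at 0.043). *Mfge8* was also present in T, NK and B cells, at 5.42 to 18.8 CPM.

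Within dendritic cells, cells were divided further after their levels had been seen, so the following values are a description. The 290 cells with at least 2 *Ccr7* UMIs, the receptor of dendritic cells that migrate to lymph nodes, held 108 of 142 *Mfge8* UMIs and 42 of 71 *Timd4* UMIs. The *Timd4* UMIs came from 18 of these cells (6.21%), and the *Mfge8* UMIs from 62 (21.4%). The 150 cells with *Cd209a*, a gene of monocyte-related dendritic cells, had 17.3 CPM of *Mfge8* against 53.5 in the *Ccr7* cells. *Pros1* ran the other way, with 17.3 CPM in the *Cd209a* cells and 0.990 in the *Ccr7* cells, from 20 and 2 UMIs. A further 59 cells with neither gene held 19 *Timd4* UMIs in 5 cells, at 37.5 CPM against 20.8 in the *Ccr7* cells. In the 3 mice with at least 10 such cells the level was 9.36 to 106 CPM. It was 1.92 to 79.5 in the *Ccr7* cells of 8 mice, so these ranges overlapped. *Timd4* was thus not limited to the *Ccr7* cells, and the 2 sets of cells cannot be ranked. *Timd4* lies on chromosome 11 (46810800 to 46844332, plus strand) and *Mfge8* on chromosome 7 (79133768 to 79149060, minus strand).

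*Sirpa* was higher in macrophages, at 502 to 720 CPM, than in monocytes, at 331 to 424, and lowest in dendritic cells, at 145 to 226. The 3 ranges did not overlap. Macrophages exceeded monocytes by 0.55 ± 0.06 (adjusted p = 1.6e-08) and dendritic cells by 1.73 ± 0.08 (adjusted p = 4.0e-17). *Sirpa* lies on chromosome 2 (129592835 to 129632228, plus strand). It was also the member with UMIs in most macrophages, 84.8% ± 3.1 of thinned cells, beside 23.7% ± 7.58 of T, NK and B cells.

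*Axl*, the TAM receptor known to rise in activated cells, had 96.4 to 168 CPM in macrophages and 71.3 to 118 in monocytes. These ranges overlapped. The log2 difference of 0.23 ± 0.08 passed the threshold (adjusted p = 0.023), but not with the *Ly6c2* limit raised to 10 UMIs (adjusted p = 0.075), without the mouse block (0.063), or without parental replicate 1 (0.063) or E0771-Res1 replicate 3 (0.095), in a range of 0.0092 to 0.095 over all alternatives. Dendritic cells, at 43.9 to 72.5 CPM, lay 0.80 ± 0.13 below monocytes (adjusted p = 7.2e-06). *Axl* UMIs came from macrophages (39.0%) and monocytes (33.8%) in similar shares, unlike those of its ligand *Gas6*. *Axl* lies on chromosome 7 (25757273 to 25788705, minus strand).

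*Cd300lf* was the one receptor that was called lower in macrophages than in monocytes. Its level was 97.8 to 159 CPM in macrophages, 119.5 to 184 in monocytes and 38.9 to 76.5 in dendritic cells. Macrophages and monocytes overlapped, and the log2 difference was -0.39 ± 0.07 (adjusted p = 3.5e-05), with dendritic cells 1.56 ± 0.11 lower than monocytes (adjusted p = 6.1e-13). *Cd300lf* lies on chromosome 11 (115116214 to 115133992, minus strand).

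*Pros1*, on chromosome 16 (62854307 to 62929346, plus strand), had 3.85 to 9.48 CPM in macrophages, 3.22 to 11.5 in monocytes and 1.85 to 13.5 in dendritic cells. The 3 ranges overlapped, and the differences of -0.28 ± 0.17 between macrophages and monocytes (adjusted p = 0.19, and called with the *C1qa* limit at 5 UMIs, at 0.033, and without the 5% of cells with most UMIs, where it was -0.61, at 0.0077) and -0.30 ± 0.28 between dendritic cells and monocytes (adjusted p = 0.42) did not pass the threshold. *Pros1* and *Gas6*, which both encode ligands of MerTK, thus had unlike values across these classes.

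*Itgav*, on chromosome 2 (83724397 to 83806916, plus strand), was higher in macrophages (73.5 to 96.6 CPM) than in monocytes (43.6 to 80.3), by 0.37 ± 0.08 on the log2 scale (adjusted p = 4.2e-04), and lower in dendritic cells (21.9 to 42.6), by 1.01 ± 0.14 (adjusted p = 8.2e-07 against monocytes). Its highest levels were outside the myeloid cells. T, NK and B cells had 101 to 226 CPM, above the macrophages of every mouse, and held 12.3% of all *Itgav* UMIs in 673 of 10605 kept cells. In a division made after these levels were seen, 130 *Cd3* cells with *Foxp3*, the factor of regulatory T cells, had 282 CPM and 161 *Cd3* cells with *Cd8a* or *Cd8b1* had 212 CPM, against 85.3 CPM in 155 cells with *Ncr1* or *Klrb1c* and no *Cd3*. *Itgav* was found in 66.2% of the *Foxp3* cells and 31.0% of the cells with *Ncr1* or *Klrb1c*, whose median depths were 5700.5 and 7153 UMIs.

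The genes most like each member over the 24 sums per mouse and class, by the Pearson correlation of log2 CPM, were as follows, with the points sharing mice and depth. The macrophage class was set by *C1qa*, so a high r with *C1qb*, *C1qc* or other macrophage genes is not independent of the gate. *Gas6* was nearest to *C1qb* (r = 0.956), *C1qc* (0.952) and *Apoe* (0.945), *Stab1* to *Tmem37* (0.932), *Adgre1* (0.927) and *Mmp13* (0.915), and *Mertk* to *P2ry6* (0.948), *Hexa* (0.941) and *Timp2* (0.938). Both genes that were highest in dendritic cells had *Lrrk1* among their nearest (0.965 for *Timd4*, 0.923 for *Mfge8*). *Sirpa* was nearest to *C3ar1* (0.986), *Itgav* to *Grn* (0.954), *Axl* to *Cd300c2* (0.923) and *Cd300lf* to *Sdcbp* (0.974). *Pros1* had no close neighbor, with 0.714 for *Srpr*.

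Of 55 further genes of the uptake pathway, 46 passed the filter, and 15 were higher and 18 lower in macrophages than in monocytes, beside 25.8% and 27.5% of all genes. The higher ones were led by the complement bridges *C1qc* (4.10) and *C1qb* (3.81), the mannose receptor *Mrc1* (1.75), the lipid receptor *Trem2* (1.67) and the cholesterol exporter *Abca1* (1.63, log2 differences), and the lower ones by the bridge *Thbs1* (-2.16), the cystine transporter *Slc7a11* (-1.51) and the "do not eat me" gene *Cd24a* (-1.29). The median of the 46 was 0.01, the same as that of all genes. Macrophages had been gated on *C1qa*, so the lead of its partner genes *C1qc* and *C1qb* is not independent of the gate. In dendritic cells 35 of the 46 were lower than in monocytes and 2 higher (*Cd24a*, 2.39, and *Cd47*, 0.22), beside 25% and 21.4% of all genes, with a median of -0.86.

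The study asked how the macrophages of resistant tumors differ from those of the parental line. In macrophages, *Stab1* and *Gas6* were higher in every resistant tumor than in both parental tumors, by about 1 on the log2 scale, but neither passed the threshold over all genes. *Mertk*, *Axl*, *Itgav* and *Sirpa* overlapped between parental and resistant tumors, and *Cd300lf* was lower in resistant tumors, again short of the threshold. The share of all genes whose parental and resistant mice did not overlap was not counted. The separation of *Stab1*, *Gas6* and *Cd300lf* is therefore a description. None of the 8 members tested was called, where 1.09% of all 9113 genes were (0.252% higher, 0.834% lower, 99 in all, and 1202 with an unadjusted p under 0.05). DESeq2 called 1, *Stab1*.

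Monocyte genes moved with the tumor line in the same macrophages. The 5 monocyte genes summed to 1875 and 1879 CPM in the parental tumors, to 888, 992 and 1634 in E0771-Res1 and to 962, 1139 and 895 in E0771-Res2. All resistant values lay below both parental ones, and E0771-Res1 replicate 3 was the highest of them. *Ly6c2* was lower in resistant macrophages by 0.82 on the log2 scale (adjusted p = 0.036) and *Apoe* higher by 0.58 (adjusted p = 0.043), while *Ccr2* differed by -0.52 (adjusted p = 0.10). The part of these genes in the values of *Stab1*, *Gas6* and *Cd300lf* was not tested.

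*Stab1* in macrophages was at 37.7 and 28.4 CPM in the parental tumors, at 94.1, 73.1 and 53.0 in E0771-Res1 and at 55.5, 83.0 and 67.9 in E0771-Res2. All 6 resistant values were above both parental values. Resistant tumors exceeded parental by 1.05 ± 0.24 on the log2 scale (adjusted p = 0.052), and the adjusted p was 5.7e-08 to 0.048 in 7 of the 19 alternatives and up to 0.53, without parental replicate 3, in the others. E0771-Res1 replicate 3, with the most monocyte RNA of the resistant mice, had the lowest *Stab1* among them. Within E0771-Res2, however, the mouse with the most monocyte RNA had the highest *Stab1*. With the *C1qa* limit at 20 UMIs the difference of resistant from parental tumors was 1.15 (adjusted p = 0.048). At 4500 UMIs per cell, 11.2% and 9.47% of parental macrophages had a *Stab1* UMI, against 12.1% to 22.1% in the E0771-Res1 mice and 12.7% to 18.1% in those with E0771-Res2. The thinned shares kept the order, with a smaller gap. At 11 or more *C1qa* UMIs after thinning, parental mice had 87.0 and 128 *Stab1* UMIs per 1000 macrophages. E0771-Res1 mice had 154 to 358 there and E0771-Res2 mice 199 to 273, all above parental. At 6 to 10 *C1qa* UMIs parental mice had 158 and 161, from 50 macrophages. E0771-Res2 mice, with 170 to 296, lay above these values, but E0771-Res1 mice, with 35.7 to 190, overlapped with them.

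*Gas6* in macrophages was at 14.1 and 13.1 CPM in the parental tumors, at 41.3, 39.9 and 17.0 in E0771-Res1 and at 27.8, 36.8 and 20.7 in E0771-Res2. The groups did not overlap here either, although the parental values came from 27 and 12 UMIs. E0771-Res1 replicate 3, with 1634 CPM of monocyte genes, was again the lowest resistant mouse. Within E0771-Res2 the mouse with the most monocyte RNA had the highest *Gas6*, and the mouse with the least had the lowest. The difference of resistant from parental tumors was 1.14 ± 0.35 (adjusted p = 0.18), and without E0771-Res1 replicate 3 it was 1.27 (adjusted p = 0.013), within a range of 3.0e-04 to 0.63 over the alternatives. In thinned cells the shares were 2.54% and 2.11% in parental and 4.68% to 10.1% in resistant tumors.

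*Cd300lf* in macrophages was at 159 and 151 CPM in the parental tumors, at 117.5, 97.8 and 107 in E0771-Res1 and at 137, 128 and 149 in E0771-Res2. All resistant values lay below both parental ones, E0771-Res1 further than E0771-Res2, whose highest value was close to the lower parental one. Among thinned macrophages with at least 11 *C1qa* UMIs, parental mice had 536 and 654 *Cd300lf* UMIs per 1000 cells. The E0771-Res2 mice had 404 to 561 and the E0771-Res1 mice 413 to 463, so parental and E0771-Res2 overlapped at equal depth. At 6 to 10 *C1qa* UMIs this order was lost. Parental mice there had 452 and 632, from 50 macrophages. Values of E0771-Res1 mice were 500 to 635 and those of E0771-Res2 mice 491 to 653, so both lines overlapped with parental. The difference of resistant from parental tumors was -0.36 ± 0.11 (adjusted p = 0.15), and E0771-Res2 differed from E0771-Res1 by 0.35 ± 0.10 (adjusted p = 0.095). *Sirpa*, at 502 to 607 CPM in E0771-Res1 against 677 to 720 in the E0771-Res2 mice, differed between the resistant lines by 0.33 ± 0.09 (adjusted p = 0.095), and *Ccr2* by -0.85 (adjusted p = 0.0046) in the same cells. Here 2.64% of all genes passed the threshold (1.54% higher and 1.11% lower) and none of the 8 members did.

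*Mertk* in macrophages ran from 22.1 to 58.8 CPM within E0771-Res1 alone, a range that held both parental values (31.9 and 40.4) and all E0771-Res2 values (35.1 to 45.3). The difference of resistant from parental tumors was 0.14 ± 0.26 (adjusted p = 0.88). *Axl* differed by -0.20 ± 0.16 (adjusted p = 0.65), *Itgav* by 0.23 ± 0.13 (adjusted p = 0.51) and *Sirpa* by 0.13 ± 0.10 (adjusted p = 0.64). The ranges of parental and resistant mice overlapped for all 4.

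**Figure D3:**
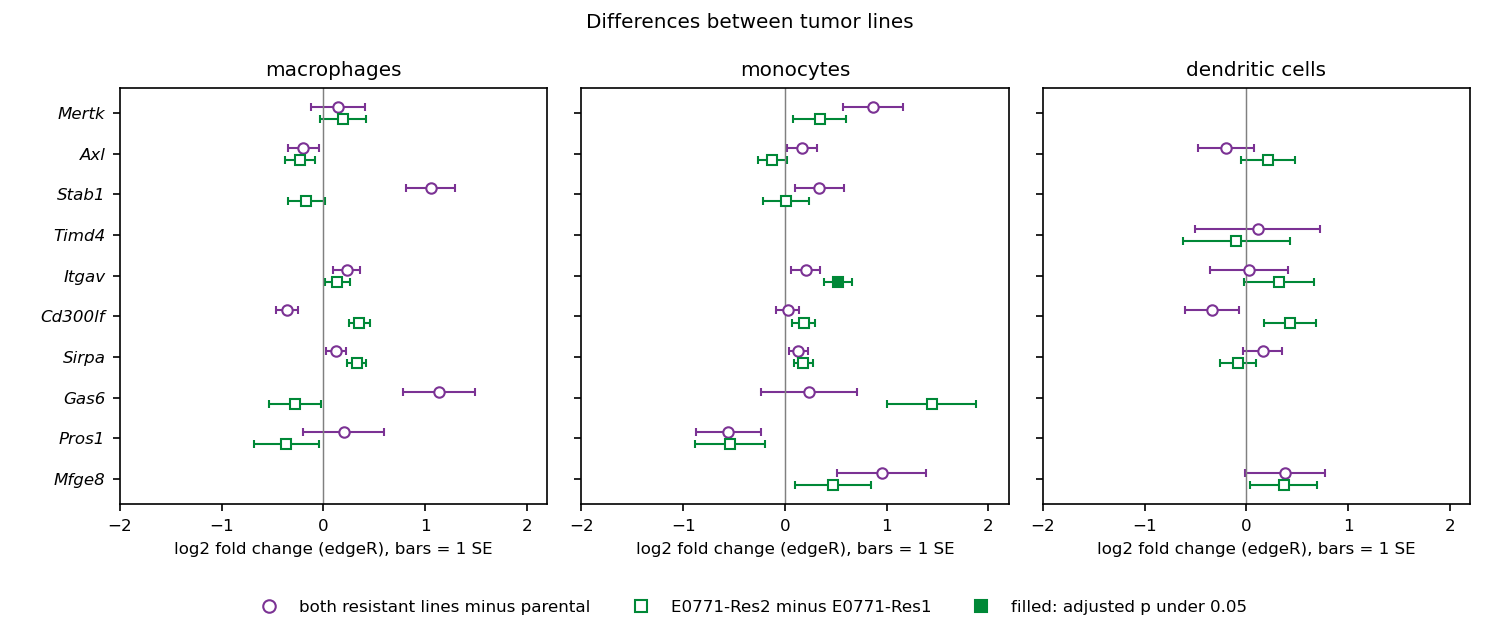
Log2 fold changes (horizontal axis, with 1 SE) of the members that passed the filter in macrophages, monocytes and dendritic cells, for both resistant lines minus parental (circles) and E0771-Res2 minus E0771-Res1 (squares), with filled symbols where the adjusted p was under 0.05. *Stab1* and *Gas6* in macrophages lay about 1 above 0 for the resistant lines, and the only filled symbol is *Itgav* in monocytes.

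In monocytes, *Itgav* was at 80.3, 58.0 and 74.8 CPM in E0771-Res2 and at 57.1, 43.6 and 45.5 in E0771-Res1, and the parental values of 51.3 and 53.4 lay within the range of E0771-Res1. The resistant lines did not overlap. The difference of 0.52 ± 0.14 was the one called between lines (adjusted p = 0.048, where 3.56% of 9377 genes were called, 2.15% higher and 1.41% lower), and the call was lost in DESeq2 (adjusted p = 0.10), with the *C1qa* limit at 5 (0.064) or 20 UMIs (0.050), and without any 1 of 6 mice (0.066 to 0.20: either parental mouse, E0771-Res1 replicates 2 and 3, E0771-Res2 replicates 1 and 3). In the same monocytes *Ccr2* differed by -0.53 (adjusted p = 0.030), *Trem2* by 0.45 (0.025) and *C1qa* by 0.43 (0.070). *Mrc1* differed by -0.77 (0.058) and *Ly6c2* by -0.03 (0.90). Median depths were 5809.5 to 7002 UMIs in E0771-Res2 monocytes and 7174 to 8539 in those of E0771-Res1. The part of these genes and of depth in the *Itgav* value was not tested. Between resistant and parental monocytes none of 9 members was called (0.832% of all genes, 0.373% higher and 0.459% lower). *Mertk* came nearest, with 7.24 and 7.09 CPM in parental and 6.96 to 17.7 in resistant monocytes, a difference of 0.87 ± 0.30 (adjusted p = 0.22), and *Stab1* differed by 0.34 ± 0.24 (adjusted p = 0.63).

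In dendritic cells, with 23 to 120 cells per mouse, 6 members could be tested and none was called between resistant and parental tumors. Of all 6039 genes none passed the threshold there in edgeR, 410 had an unadjusted p under 0.05 and DESeq2 called 1 (0% in edgeR). *Mfge8* was at 22 and 40.5 CPM in parental tumors and at 11.9 to 50.6 in resistant tumors (0.38 ± 0.39, adjusted p = 0.89), and *Timd4* at 6.59 and 36.0 in parental and 5.94 to 25.9 in resistant tumors (0.11 ± 0.61, adjusted p = 1.00). Between the resistant lines 0.0331% of genes were called (0.0166% higher and 0.0166% lower), none of them a member.

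Of the 46 pathway genes tested in macrophages, 2 were higher in resistant than in parental tumors, *Trem2* (1.12, adjusted p = 0.0065) and the scavenger receptor *Cd36* (1.58, adjusted p = 0.020), and 1 was lower, the integrin chain *Itgb2* (-0.43, adjusted p = 0.034), where 1.09% of all genes were called. E0771-Res2 macrophages had more of the lipid sensors *Pparg* (0.61) and *Nr1h3* (0.36) than E0771-Res1 macrophages, where 2.64% of all genes were called. In monocytes *Trem2* was higher (0.54) and *Thbs1* lower (-0.90) in resistant tumors, and the other 44 were not called (0.832% of all genes were). E0771-Res2 monocytes had higher *Pparg* (0.83), *Lipa* (0.66), *Dnase2a* (0.51) and *Trem2* (0.45) and lower *Cd14* (-0.53) than E0771-Res1 monocytes, where 3.56% of all genes were called.

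Because *Trem2* itself differed between the lines, macrophages were divided by a *Trem2* UMI at equal depth. The share with a *Trem2* UMI was 38.6% and 30.5% in the parental tumors, 49.7% to 55.3% in the E0771-Res1 mice and 54.4% to 59.9% in those with E0771-Res2. The resistant mean of 54.7% exceeded the parental mean of 34.6% by 20.1 percentage points, which restates the difference in *Trem2* counts and is given as a description. The 2144 thinned macrophages comprised 1121 with and 1023 without a *Trem2* UMI.

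*Stab1* was higher in macrophages with a *Trem2* UMI, in 8 of 8 mice. Its level was 197 to 443 UMIs per 1000 cells with *Trem2* (median 248) and 45.5 to 268 without (median 127). The difference within mice was smallest in E0771-Res2 replicate 2, at 277 against 268. The log2 difference was 0.84 ± 0.15 (edgeR, adjusted p = 1.5e-04), and *Stab1* was the only 1 of 6 members tested that was called, where 6.6% of 4936 genes were (3.02% higher and 3.59% lower). Other markers moved with *Trem2* in the same cells. The monocyte gene *Ly6c2* was lower with *Trem2* (-0.81, adjusted p = 1.1e-09), and the macrophage genes *Apoe* (1.08, adjusted p = 5.3e-17), *Adgre1* (0.33), *C1qa* (0.29), *C1qc* (0.28) and *C1qb* (0.21) were higher, so the cells without *Trem2* UMIs held more *Ly6c2* RNA. The part of these genes in the result was not tested.

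*Gas6* had 165 UMIs in cells with *Trem2* and 43 in cells without, and was higher with *Trem2* in 7 of 8 mice. Per 1000 cells it stood at 65.8 and 0 with *Trem2* against 8.26 and 90.9 without in the parental mice, at 195, 140.4 and 158.5 against 60.2, 0 and 24.1 in E0771-Res1, and at 137.5, 185 and 117 against 22.2, 103 and 24.4 in E0771-Res2. The parental mice went in opposite directions, on 12 UMIs, and the 6 resistant mice in the same one. The counts were below the filter, so *Gas6* was not tested in the main comparison. Without the filter its log2 difference was 1.74, which is given as a description, since the counts were low and the parental mice disagreed. It stands beside the differences in *Ly6c2* and *Apoe* given above.

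*Mertk*, at 36.6 to 316 UMIs per 1000 cells with *Trem2* and 43.5 to 197 without, was higher with *Trem2* in 4 of 8 mice, and the difference of 0.63 ± 0.22 did not pass the threshold (adjusted p = 0.088). It did without parental replicate 3 (0.022) or E0771-Res2 replicate 2 (0.033), in a range of 0.022 to 0.70 over the alternatives. *Itgav* (0.26 ± 0.15, adjusted p = 0.42), *Sirpa* (0.03 ± 0.06, adjusted p = 0.91), *Axl* (-0.09 ± 0.11, adjusted p = 0.76) and *Cd300lf* (-0.17 ± 0.10, adjusted p = 0.39, lower with *Trem2* in 7 of 8 mice) were not called either. *Cd300lf* was called with another random draw of the thinning (-0.37, adjusted p = 0.012), in a range of 0.0028 to 0.78 over the alternatives.

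**Figure D4:**
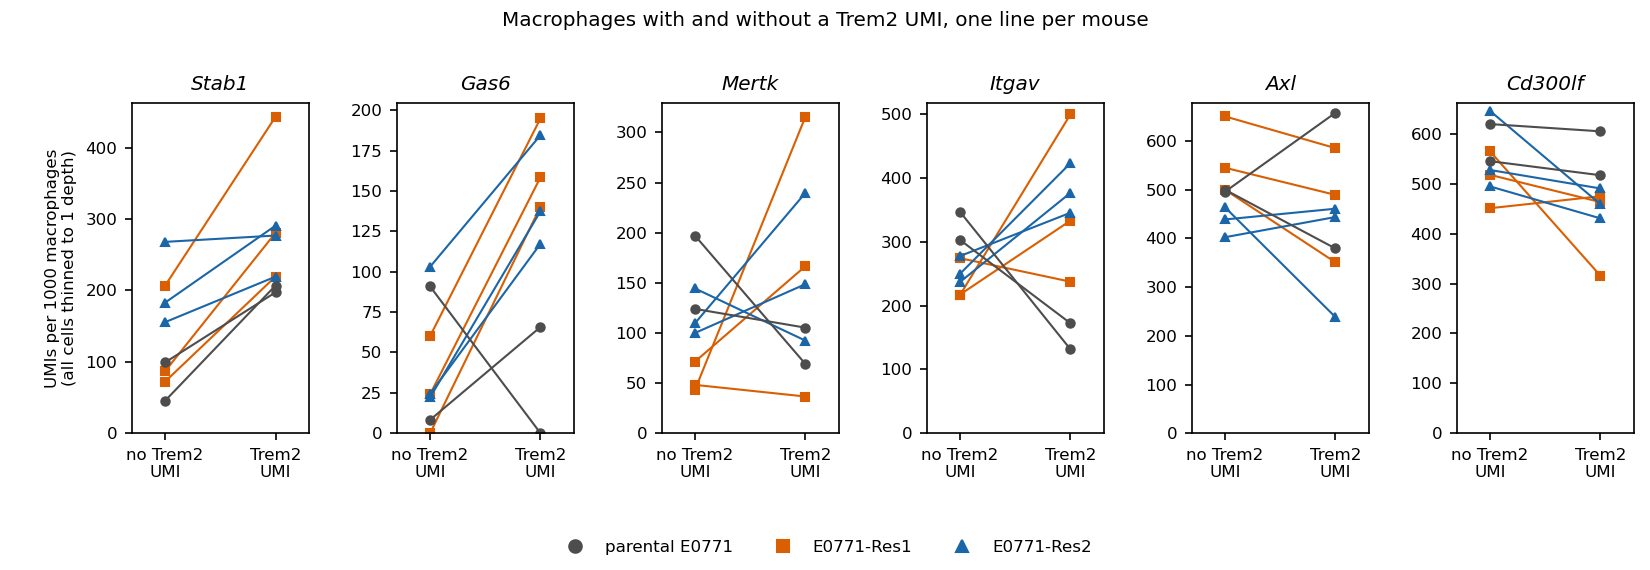
UMIs per 1000 macrophages (vertical axis, linear, a scale of its own for each gene) without and with a *Trem2* UMI, all cells thinned to 4500 UMIs, with 1 line per mouse, colored by tumor line. *Stab1* was higher with *Trem2* in 8 of 8 mice and *Gas6* in 7, whereas the lines of *Mertk* and *Axl* crossed.

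Whether the *Trem2* difference itself differed between resistant and parental tumors was tested as an interaction. No member was called (0.162% of 4936 genes were, 8 in all, each lower). *Itgav* had the largest value, 1.62 ± 0.43 (adjusted p = 0.24), followed by *Mertk* with 1.43 ± 0.62 (adjusted p = 0.87), which was -0.05 with another random draw.

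The other pathway genes that differed by *Trem2* were 9 higher and 3 lower of 39 tested, beside 3.02% and 3.59% of all 4936 genes. *Abca1* (1.25), *Mrc1* (0.87), *Cd36* (0.75), the phospholipid-binding *Anxa1* (0.53) and the integrin chain *Itgb5* (0.42) led the higher ones, and *Slc7a11* (-0.72), *Nr1h3* (-0.42) and the complement gene *C3* (-0.40) were the lower ones.

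Single macrophages with UMIs of 2 members were counted at equal depth, as a description with no test. *Gas6* and *Stab1* were found together in 58 cells, where their shares in each mouse multiplied to 23.1 cells, a ratio of 2.51 that was above 1 in 7 of 8 mice. *Gas6* and *Mertk* were found together in 26 cells against 14.8 expected (1.76, 8 of 8 mice) and *Mertk* and *Stab1* in 49 against 38.5 (1.27, 7 of 8). *Gas6* and *Cd300lf* met less often than their shares gave, in 33 cells against 47.9 (0.69, above expectation in 1 of 8 mice), and *Axl* and *Stab1* in 104 against 120.5 (0.86, 1 of 8). *Gas6* met its other receptor *Axl* at the expected rate (48 against 46.8 cells, 1.02), as *Mertk* did *Axl* (86 against 84.9, 1.01).

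**Figure D5:**
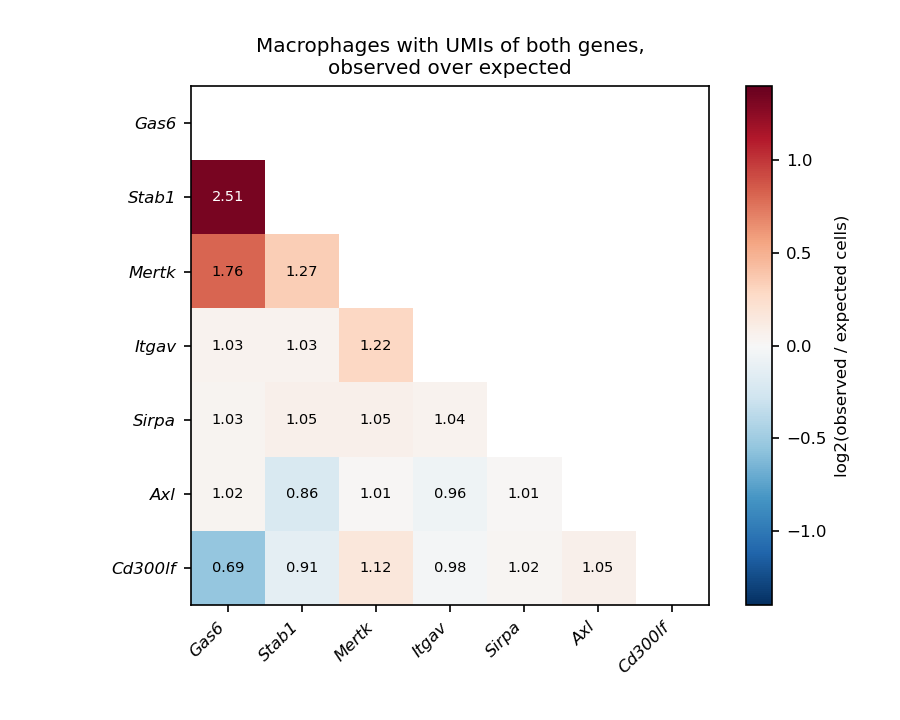
Ratio of observed to expected macrophages with UMIs of both genes, at 4500 UMIs per cell, for each pair of 7 members (color on a log2 scale, with the ratio printed in each square). The highest ratio was 2.51 for *Gas6* with *Stab1* and the lowest 0.69 for *Gas6* with *Cd300lf*.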

How the data were processed

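Per the file headers, the authors counted UMIs with Cell Ranger 6.1.2, and the submitters' processing notes name Seurat and the build mm10. Cells of each mouse had been tagged, pooled and separated. The deposited values are raw counts per gene and cell, without normalization, in 1 matrix per mouse, and 9 tag features were left out. The cell filter asked for 500 to 6000 detected genes and a mitochondrial share under 10%, and mt-, Rpl, Rps and Gm genes were removed. Cells with at least 2 lymphoid UMIs and 10 *C1qa* UMIs or any *Csf1r* were set aside as mixed, and no doublet caller was run. Counts were summed per mouse and class (at least 10 cells) and tested with edgeR 4.0.16 in R 4.3.3 (TMM, filterByExpr, quasi-likelihood test, Benjamini-Hochberg over all genes, adjusted p under 0.05 called), in 1 fit of the 3 lines per class, or with the mouse as a block between classes and *Trem2* states. Thinning drew 4500 UMIs per cell without replacement, the largest multiple of 500 that at least 90% of macrophages reached. Shares and levels were computed in Python 3.11.15 and figures drawn with matplotlib 3.10.9. Named were all 10 members, up to 5 pathway genes per direction with the largest called change, and the 3 nearest genes of a member. The members, gates and lists were chosen with earlier results of these data known. The edgeR fits between classes, between lines in macrophages and by *Trem2* were first tested on simulated counts, with 1 fixed spread for all genes. The line fits in monocytes and dendritic cells, the interaction and DESeq2 were not. Alternatives were DESeq2 1.42.0, other size factors, no filter, other limits for *C1qa*, *Ly6c2* and *Trem2*, all cells, the highest-UMI cells removed, cells with tumor or stromal UMIs removed, and each mouse left out. Replicates were separate mice and differed by more than sampling noise (chi-square per degree of freedom 2.66 to 12.5). Correlations of deviations were -0.135 to 0.245 in 7 same-numbered pairs of mice and -0.281 to 0.135 in 14 other pairs. Pairing by replicate number was thus neither shown nor excluded. Floors of 3 counts cover counting error only. Gene overlaps on the opposite strand exist for *Mertk*, *Gas6* (*Tmem255b*), *Stab1* (*Nt5dc2*), *Itgav* and *Cd300lf* (*Rab37*).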

Additional observations from a re-analysis of the deposited data

Results flagged for a closer look

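*Itgav* in macrophages moved in opposite directions with *Trem2* in parental and E0771-Res2 tumors. It was lower in cells with a *Trem2* UMI in 2 of 2 parental mice (mean difference -173 UMIs per 1000 cells) and higher in 3 of 3 E0771-Res2 mice (127), while the E0771-Res1 mice were divided. The parental values with *Trem2* came from only 10 *Itgav* UMIs in 76 cells and 5 in 29 cells. The share of all genes with such opposite signs was not counted. The interaction of both resistant lines against parental did not pass the threshold (adjusted p = 0.24), and the difference between these 2 lines alone was not tested.

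*Cd300lf* was slightly higher in macrophages than in monocytes in both parental mice, by a mean of 4.47 CPM, and lower in all mice of E0771-Res1 (-33.2 CPM) and E0771-Res2 (-24.2 CPM). On the same scale *Mfge8* in macrophages differed from monocytes by 0.0236 CPM in parental and by -2.66 CPM in E0771-Res2 mice, from 1 to 21 UMIs per mouse and class. These are plain CPM, and TMM lowered the log2 fold of macrophages over monocytes by 0.18. The sign of the small parental differences of both genes can thus depend on the scale. *Pros1* was lower in macrophages than in dendritic cells in parental mice (-6.13 CPM) and higher in E0771-Res1 mice (2.72 CPM), with 1 to 6 UMIs per mouse in dendritic cells. These 3 differences between lines were not tested.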

How the results depend on the processing

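Depth and mouse number limit the line comparisons: 2 parental mice, parental *Gas6* counts of 27 and 12 UMIs, and 23 dendritic cells in 1 mouse. For resistant minus parental macrophages the count of members rose from 0 to 2 without the filter on low counts (*Gas6*, *Stab1*), to 1 (*Stab1*) under DESeq2, both *C1qa* limits, all cells and without the cells with most UMIs, and was 0 to 2 without 1 mouse. For E0771-Res2 minus E0771-Res1 it rose to 1 without the filter (*Sirpa*), 2 with *C1qa* at 5 (*Sirpa*, *Cd300lf*) and 1 without the cells with most UMIs, and the 1 called in monocytes became 0 under DESeq2 and both *C1qa* limits and was 0 to 1 without 1 mouse. For the *Trem2* division the 1 member became 2 without cells with tumor or stromal UMIs or with another draw, 5 unthinned and 3 without the filter, and 1 to 3 without 1 mouse. Over all genes, the filter moved the counts from 99 to 448 and 241 to 593 (macrophages), 78 to 371 and 334 to 666 (monocytes), and 0 to 52 and 2 to 92 (dendritic cells, where DESeq2 gave 1 and 6), *C1qa* at 5 gave 51 in resistant minus parental monocytes, and leaving out 1 mouse gave 4 to 311, 90 to 273, 0 to 154, 109 to 452, 0 to 2 and 1 to 5 in that order. The 4 came without parental replicate 3, the 311 without E0771-Res1 replicate 3 and the 0 in monocytes without parental replicate 1. The *Trem2* division called 326 genes, 815 unthinned, 198 with *C1qa* at 10 after thinning and 147 by DESeq2. The interaction called 8 genes, 3 without the cells with most UMIs or with tumor or stromal UMIs, 0 unthinned or with another draw, 2 at 2 *Trem2* UMIs, 5 with thinned *C1qa* or other size factors, 13 without the filter, 1 by DESeq2 and 0 to 11 without 1 mouse. The difference in the *Trem2* share was 16.1 to 24.2 percentage points without 1 mouse. The replicate block called 4 genes in place of 2 in dendritic cells of the resistant lines and changed no call of a member.

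Signs turned in these values, on the log2 scale: *Timd4* in macrophages minus monocytes (0.027 with *C1qa* at 5), *Pros1* in macrophages minus dendritic cells (-0.18 with *C1qa* at 5, -0.27 without the cells with most UMIs, -0.048 without the mouse block, -0.16 to 0.12 without 1 mouse), *Axl* (0.0045) and *Sirpa* (-0.00094) by *Trem2* with thinned *C1qa*, the *Mertk* interaction (-0.055 with another draw, against 1.43), *Timd4* in resistant minus parental dendritic cells (-0.081 by DESeq2, -0.95 to 1.45 without 1 mouse), *Mfge8* there (-0.12 to 0.76), *Mertk* in resistant minus parental macrophages (-0.073 to 0.29), and *Stab1* (-0.35 to 0.13) and *Gas6* (-0.54 to 0.050) in macrophages between the resistant lines. The cause of these changes was not tested. The *Trem2* division was not rerun on cells with at least 2000 UMIs, since thinning already left out all others.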
